A study of Mus musculus with 70 samples.

Results

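Cadherins are calcium-dependent adhesion proteins of the cell surface. The mouse genes named Cdh or Pcdh with a number, and Pcdh11x, were examined here: 35 of the 23078 genes in the deposited expression table carried such a symbol. They comprised 5 classical type I cadherins, 13 type II cadherins, 5 atypical cadherins, 4 delta1 and 5 delta2 protocadherins and 3 other protocadherins. The symbol rule therefore also took genes that are not classical cadherins, such as Cdh13, Cdh16, Cdh17, Cdh23, Cdh26 and Pcdh15, and it left out the clustered protocadherins. Of the 35 genes, 28 reached a mean of 1 TPM (a transcript level already divided by transcript length and library total) in at least 1 group and were tested.

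As background, classical cadherins join neighbouring cells through their outer domains and bind beta-catenin and p120-catenin inside the cell, which links them to actin. In the embryonic cortex N-cadherin (Cdh2) holds together the apical junctions of radial glia, and type II cadherins mark regions, layers and later circuits in combinations. The delta protocadherins adhere weakly, and several of them bind the actin-regulating WAVE complex through their cytoplasmic tails.

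The libraries came from GFP-positive cells sorted from the dorsal cerebral cortex of wild-type C57Bl/6 mice that carried a reporter. Newborn neurons (NBNs) and basal progenitors (BPs, the dividing daughters of neural stem cells that produce neurons) both came from Tbr2::GFP mice, in which the reporter follows the BP gene Tbr2 (Eomes). Neural stem cells (NSCs) came from Hes5::GFP mice, in which the reporter follows the Notch target Hes5. There were 14 NBN libraries at 5 stages from E15.5 (embryonic day) to PN (postnatal day 1), 23 BP libraries at 8 stages from E12.5 to PN, and 33 NSC libraries at 10 stages from E10.5 to PN, with 2 to 4 libraries in each of the 23 groups. The labels do not tell how NBNs and BPs were separated from each other. The reporter line and the contrast of NSCs with the other cell types coincide and cannot be told apart. All samples were labelled female, yet 43 of the 70 libraries had more than 10 TPM of summed transcripts from the Y-linked genes Ddx3y, Eif2s3y, Kdm5d and Uty. The labels do not say whether the replicates of a group came from different animals; in 18 of the 23 groups the libraries lay on both sides of 10 TPM, so these replicates were not all drawn from 1 sample of cells. The fit pools the spread of each gene over all groups. If the replicates of the other groups were technical, every p-value may thus rest on too small a spread. One NSC library at PN (replicate 3) carries a basal progenitor entry in its cell type label but an NSC title and a Hes5::GFP isolate, and it was kept as NSC.

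Between 16098 and 21210 genes were listed above 0 in a library, and no pair of libraries was identical. Hes5 lay between 1.94 and 7.42 TPM in NBNs, between 2.33 and 8.21 TPM in BPs and between 47.4 and 536 TPM in NSCs at the stages shared with BPs. Eomes lay between 6.15 and 47.5 TPM in NBNs, between 248 and 715 TPM in BPs and between 127 and 737 TPM in those NSCs. The Eomes ranges of BPs and NSCs overlapped almost fully, and the Hes5 ranges did not overlap. In the summed level of 10 neuron markers, 8 libraries lay more than 1.2-fold from the nearest library of their own group, by at most 1.48-fold: NSC E10.5 replicate 3, E11.5 replicate 1, E12.5 replicate 2, E14.5 replicate 3, E16.5 replicate 4 and E17.5 replicate 1, and BP E13.5 replicate 1 and E16.5 replicate 1. Leaving out one of them at a time moved no called difference by more than 0.239 and ended 3 calls, of Cdh10, Cdh13 and Cdh22. These losses, and the calls gained without one of them, are given at the gene.

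Taken as a sum, the 35 genes reached 962 ± 29.9 TPM in NBNs at E15.5 (SD, n = 4) and 327 ± 41.0 TPM in NSCs at E10.5 (n = 3), the highest and the lowest of the 23 groups. Cdh2 had the highest level of all 35 genes in every library. It made up between 27.8% of the sum, in BPs at E14.5, and 48.2%, in NSCs at E10.5 (group means). By the mean of the stage means the next genes were Pcdh8 and Cdh13 in NBNs, Cdh4 and Cdh8 in BPs, and Cdh4 and Pcdh10 in NSCs. In bulk RNA, fewer cells of a type and less RNA per cell cannot be told apart, here and in all that follows.

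**Figure D1:**
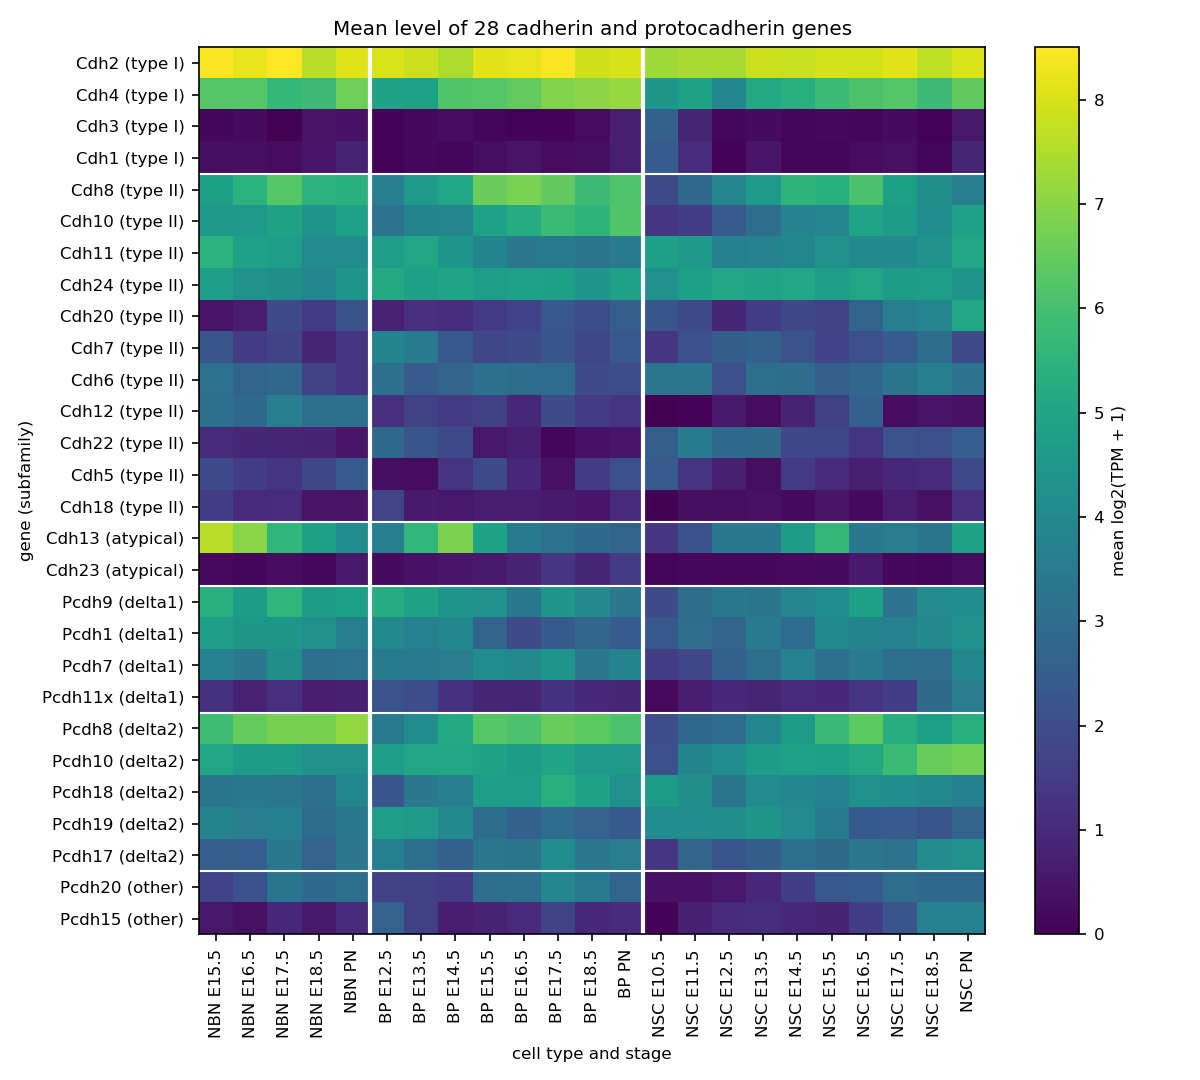
Mean expression, log2(TPM + 1), of the 28 tested genes (rows, by subfamily) in the 23 groups (columns, NBN, BP and NSC, each by stage). Brighter cells are higher. Cdh2 is high across the whole width, whereas Cdh13 is brightest in NBNs at E15.5 (mean 192 TPM). Cdh20, Pcdh10, Pcdh11x and Pcdh15 are highest in NSCs at E18.5 or PN.

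A gene was called changed where limma's moderated test on log2(TPM + 1) gave an adjusted p below 0.05 over all 15508 tested genes and the log2 difference was at least 1 in size. In these terms, 21 of the 28 tested genes were called in at least 1 of 9 comparisons, and Cdh2, Cdh5, Cdh7, Cdh18, Cdh23, Cdh24 and Pcdh17 were called in none of the 9. The share of all tested genes called in at least 1 of the 9 is not given here, so this count has no base rate. In the comparison of NBNs with BPs over their 5 shared stages, 5 genes were higher and 1 was lower in NBNs, where 4.36% of all tested genes were called higher and 5.06% lower. For NBNs against NSCs the counts were 3 higher and 5 lower in NBNs, where 6.51% of all genes were higher and 12.6% lower. For BPs against NSCs over 8 shared stages no gene passed both thresholds upward and 2 were lower in BPs, where 1.87% of all genes were higher and 6.22% lower. At an unadjusted p below 0.05, 14 of the 28 were higher in BPs by less than 1. The matching share of all genes is not given, here or for the counts by p alone below. The median difference of the 28 genes was -0.11 for NBNs against BPs, 0.08 for NBNs against NSCs and 0.14 for BPs against NSCs, and the median of all tested genes was -0.07, -0.12 and -0.02 in the same comparisons. The first and second of these comparisons share the NBN libraries, and the BP libraries and NSC libraries also recur. With quantile normalization the NBN against NSC split became 5 higher and 3 lower.

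The mean over stages hid a split by time in the calls of BPs against NSCs. From E17.5 on, 13 of the 28 genes passed both thresholds, 5 higher and 8 lower in BPs, against 5.87% of all genes higher and 12.6% lower. Up to E16.5 none of the 28 passed both thresholds, where 0.426% of all genes were called higher and 3.39% lower. By adjusted p below 0.05 alone the counts were close, with 20 of 28 from E17.5 on and 18 up to E16.5. By unadjusted p below 0.05 they were 20 and 19. The split thus lay in the size of the differences, which were all under 1 up to E16.5. The genes higher in late BPs were the type II cadherins Cdh8 (1.92 ± 0.14 on the log2 scale, SE), Cdh10 (1.29 ± 0.10) and Cdh12 (1.21 ± 0.14), the protocadherin Pcdh8 (1.17 ± 0.12) and Cdh23 (1.06 ± 0.06). The genes lower in late BPs were Pcdh15 (-1.97 ± 0.12), Cdh22 (-1.90 ± 0.14), Cdh20 (-1.89 ± 0.10), Pcdh11x (-1.64 ± 0.11), Pcdh10 (-1.60 ± 0.10), Pcdh1 (-1.43 ± 0.18), Cdh6 (-1.08 ± 0.16) and Cdh11 (-1.07 ± 0.12). For NBNs against NSCs the count was 11 (4 higher, 7 lower) from E17.5 on, against 9.29% of all genes higher and 17.1% lower. Up to E16.5 it was 2 (1 higher, 1 lower), against 2.63% and 7.47%. By adjusted p below 0.05 alone, 19 of the 28 differed between NBNs and NSCs in each of these stage ranges. For NBNs against BPs the counts were 6 (4 higher, 2 lower) from E17.5 on, against 3.97% and 4.98%, and 9 (5 higher, 4 lower) up to E16.5, against 5.3% and 5.61%. These splits by stage are separate fits of the same contrast, and whether the early and late differences differ was tested only through the changes over time given next.

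The late NSC libraries also held far more glial marker RNA. The summed level of 6 oligodendrocyte precursor markers was 3.91 to 19.9 TPM in late BPs (median 8.44) and 390 to 1730 TPM in late NSCs (median 718). The sum of 6 astroglia markers was 149 to 297 TPM in late BPs and 738 to 4182 TPM in late NSCs, with no overlap in either case. All 6 precursor markers were lower in BPs than in NSCs over the 8 stages, as were 8 of 8 interneuron and ventral markers and 8 of 8 neural stem cell markers, and 5 of 6 Cajal-Retzius markers were higher in BPs. No marker of these lists was at 0 in every library of either group. Their part in the differences of the cadherin genes was not tested.

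**Figure D2:**
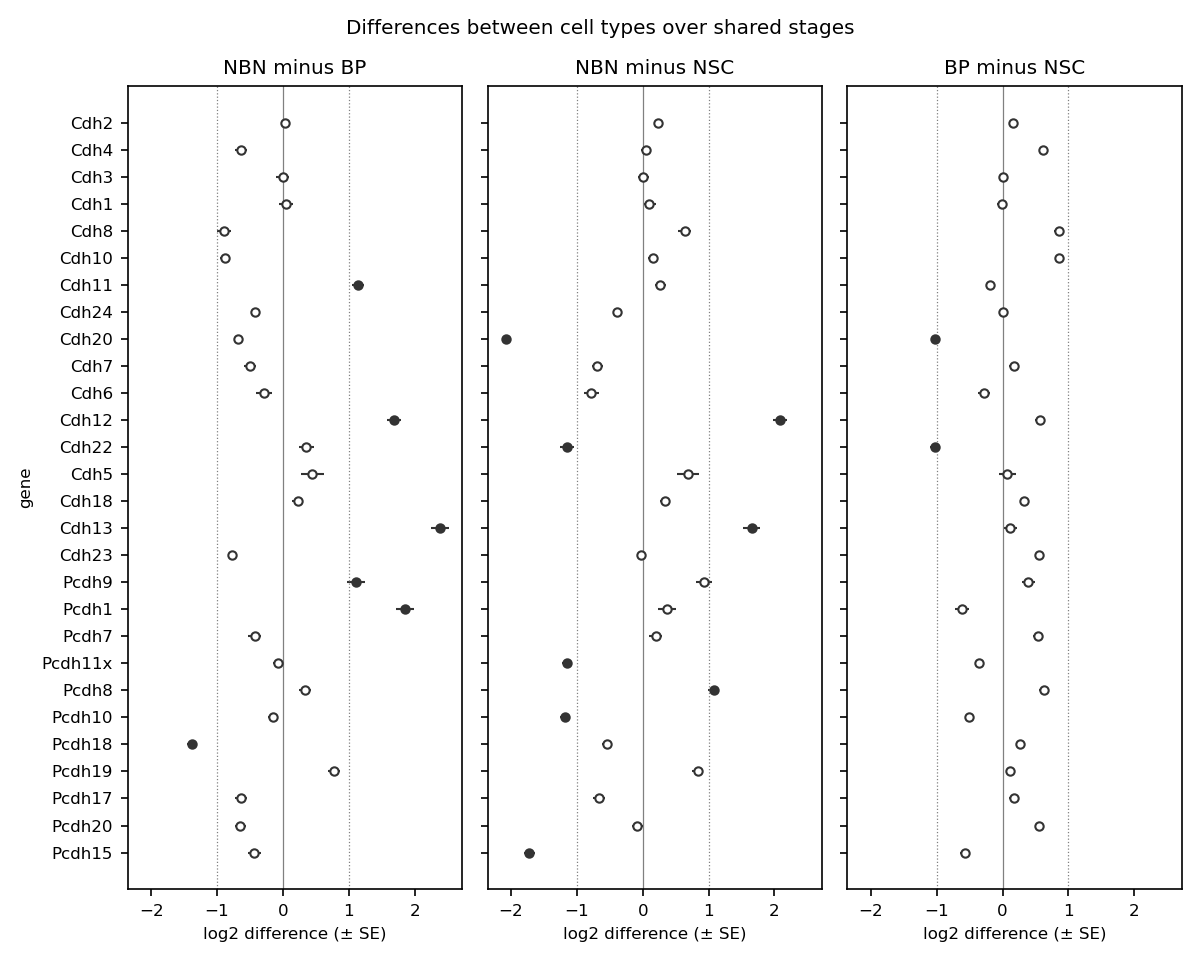
Difference between cell types on the log2(TPM + 1) scale, ± SE, for each of the 28 tested genes over the shared stages (NBN minus BP, NBN minus NSC, BP minus NSC; filled points were called, open ones were not). Cdh13 lies far to the right in both NBN panels (2.39 against BPs, 1.66 against NSCs). From E17.5 on its difference from NSCs was 0.94 and not called. Cdh20 lies far to the left against NSCs (-2.07), and all points of the BP minus NSC panel but those of Cdh20 and Cdh22 are within 1 of 0.

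Over time, NSCs had their highest count of called members between E10.5 and E15.5. In mid NSCs, which are the 11 libraries of E13.5, E14.5 and E15.5, 8 genes were higher and 2 were lower than in early NSCs, the 6 libraries of E10.5 and E11.5, where 13.7% of all genes were higher and 5.26% lower. The 28 genes had a median difference of 0.51, against 0.14 over all tested genes. Between the late window (E17.5 to PN, 9 libraries) and the mid window, 6 genes were higher and 1 was lower in late NSCs, against 9.31% of all genes higher and 2.45% lower. The median difference was 0.31 for the 28 genes and 0.12 for all. These NSC comparisons share the mid libraries. In BPs, late (7 libraries) against mid (10 libraries), 5 genes rose and 4 fell, against 3.29% and 1.42% of all genes. In NBNs, late (7 libraries) against E15.5 and E16.5 (7 libraries), 2 rose and 2 fell, against 1.27% and 1.06%. With median-ratio scaling the NSC mid against early split was 8 higher and 4 lower, the NSC late against mid split was 5 higher and 2 lower, and the BP late against mid split was 4 higher and 5 lower.

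The change from mid to late differed between BPs and NSCs for 9 of the 28 genes by a test of the difference itself. Cdh8 moved up in BPs relative to NSCs, and Cdh13, Pcdh11x, Pcdh15, Pcdh10, Cdh11, Cdh20, Pcdh1 and Cdh22 moved down, against 2.86% of all genes up and 6.85% down. The changes of NBNs and BPs, each late against E15.5 and E16.5, differed for 2 genes, Cdh8 upward and Cdh13 downward in NBNs relative to BPs, against 0.419% and 0.941% of all genes. Beside these values, all 6 oligodendrocyte precursor and all 6 astroglia markers were higher in late than in mid NSCs, with precursor sums of 390 to 1730 TPM in late NSCs and 5.16 to 46.2 TPM in mid NSCs. Of the neuron markers, 7 of 10 were lower in late than in mid NSCs, with sums of 1154 to 2767 TPM in late NSCs and 2787 to 6321 TPM in mid NSCs. In BPs 4 of 6 astroglia markers were higher late, with sums of 149 to 297 TPM in late BPs and 42.0 to 74.1 TPM in mid BPs. In late NBNs, against those of E15.5 and E16.5, 3 of 8 microglia, 3 of 6 astroglia, 3 of 8 interneuron and ventral and 2 of 6 oligodendrocyte precursor markers were higher and 2 of 6 basal progenitor markers were lower. Microglia sums were 23.1 to 65.4 TPM in late NBNs and 4.45 to 28.03 TPM at E15.5 and E16.5. Precursor sums were 20.5 to 39.4 TPM in late NBNs and 1.30 to 5.78 TPM at E15.5 and E16.5. Their part in the changes of the cadherin genes was not tested.

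**Figure D3:**
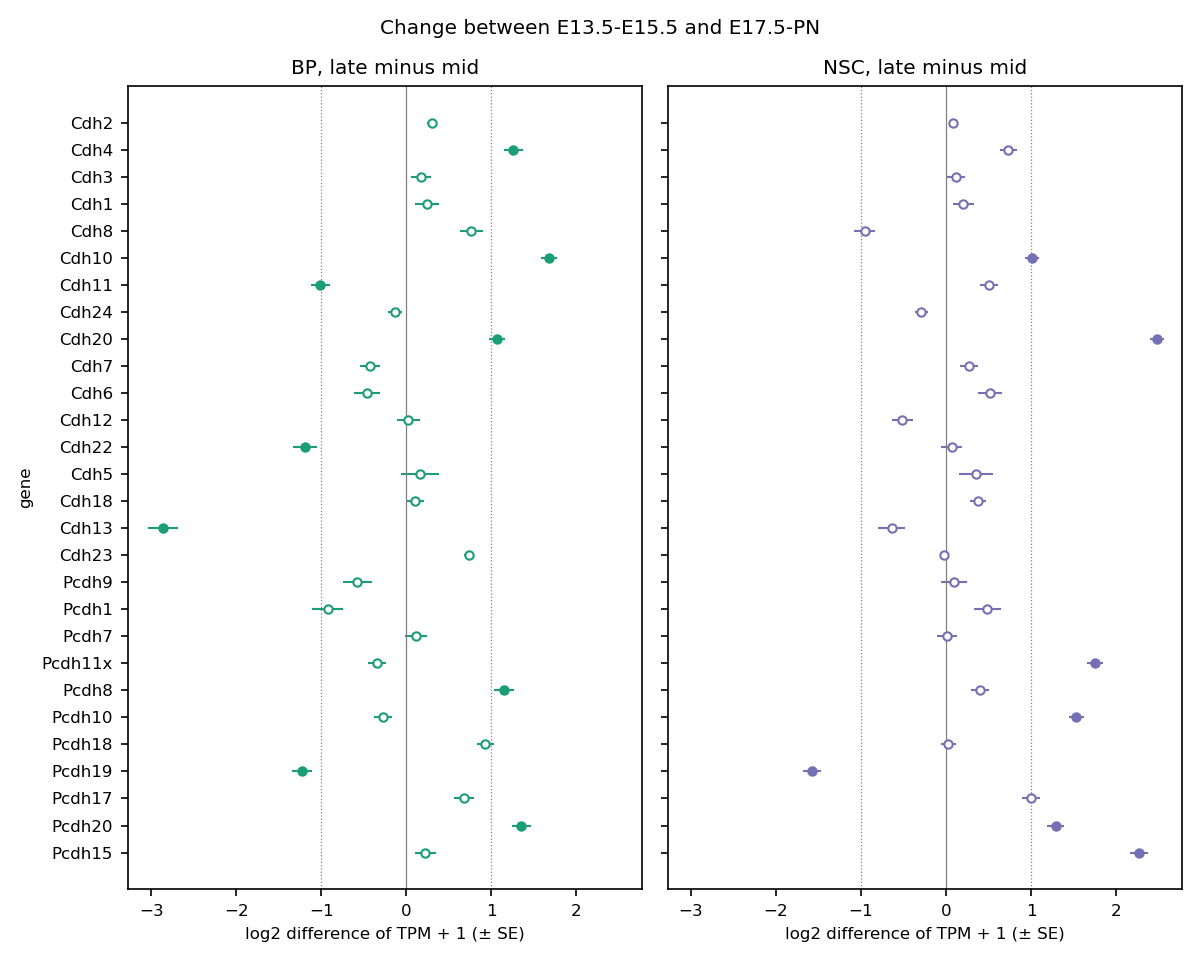
Change from the mid window to the late window on the log2(TPM + 1) scale, ± SE, in BPs (left) and NSCs (right) for the 28 tested genes, with filled points for called changes. Cdh20 (2.48), Pcdh15 (2.27), Pcdh11x (1.75) and Pcdh10 (1.53) stand far to the right in NSCs, Cdh13 (-2.86) far to the left in BPs, and Pcdh19 to the left in both.

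Promoter windows are printed for 4 of the genes called between mid and late NSCs: Cdh20, Pcdh10 and Pcdh20, which rose, and Pcdh19, which fell. Pcdh15 (2.27) and Cdh10 also rose there and had entries, but their windows are not printed. Each is the 250 bases before the annotated start, from RefSeq on GRCm38.p6, written 5′ to 3′ on the gene's strand. The 50 bases after the window were found whole in a transcript of the gene for Pcdh10, but not for Cdh20, Pcdh20 or Pcdh19. Capitals mark the E-box CAGGTG, the GC box GGGCGG or the CCAAT box, each searched on both strands. The Cdh20 window lies at chr1:104768270-104768519 on the plus strand, that of Pcdh10 at chr3:45378148-45378397 on the plus strand, that of Pcdh20 at chr14:88471397-88471646 on the minus strand and that of Pcdh19 at chrX:133688994-133689243 on the minus strand.
Cdh20: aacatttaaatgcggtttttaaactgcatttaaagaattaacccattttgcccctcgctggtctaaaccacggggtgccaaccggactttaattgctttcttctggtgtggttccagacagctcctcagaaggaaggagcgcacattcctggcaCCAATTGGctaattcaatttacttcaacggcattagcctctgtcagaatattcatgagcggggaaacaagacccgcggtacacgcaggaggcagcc
Pcdh10: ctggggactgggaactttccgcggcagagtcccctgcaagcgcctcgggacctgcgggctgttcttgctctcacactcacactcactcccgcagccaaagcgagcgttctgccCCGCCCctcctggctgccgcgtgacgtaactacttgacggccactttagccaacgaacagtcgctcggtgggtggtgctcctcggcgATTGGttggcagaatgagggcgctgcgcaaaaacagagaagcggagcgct
Pcdh20: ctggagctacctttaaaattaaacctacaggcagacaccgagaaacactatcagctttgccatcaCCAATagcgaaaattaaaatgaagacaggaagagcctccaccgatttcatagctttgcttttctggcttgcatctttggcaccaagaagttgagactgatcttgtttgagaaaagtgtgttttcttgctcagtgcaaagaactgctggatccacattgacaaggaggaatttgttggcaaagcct
Pcdh19: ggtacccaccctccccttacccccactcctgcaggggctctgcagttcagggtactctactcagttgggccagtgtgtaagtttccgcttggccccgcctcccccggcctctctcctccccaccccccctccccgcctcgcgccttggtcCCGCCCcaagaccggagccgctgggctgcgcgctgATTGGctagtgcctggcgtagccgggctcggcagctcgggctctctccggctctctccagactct
The windows differ in composition: 22 CpG and 63.2% G or C for Pcdh10, 16 CpG and 69.2% for Pcdh19, 10 CpG and 47.6% for Cdh20, and 3 CpG and 42.4% for Pcdh20. All 4 hold CCAAT, which in Cdh20 stands as a pair of overlapping matches on opposite strands. Pcdh10 and Pcdh19 also hold GGGCGG once each.

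Of the 35 genes, 22 had a promoter entry, with 25 windows in all. Cdh1 (E-cadherin), Cdh2, Cdh3 and Cdh4 had none, so they were not searched. Cdh7 and Pcdh9 had windows at multiple starts, and those of Pcdh9 overlap (chr14:93890670-93890919 and chr14:93890680-93890929). The windows are thus not independent of each other. CCAAT was found in 15 of these 25 windows and in 33.8% of all 32851 windows of the same length; GGGCGG in 9 of 25 and in 32.7% of all; CAGGTG, the core bound by Snail and Zeb repressors of E-cadherin, in 3 of 25 and in 17.2% of all; and TATAAA in 2 of 25 and in 12.4% of all. The windows with CAGGTG belonged to Cdh7 and Pcdh15 only. The median window of these genes with an entry had 10 CpG and 58.4% G or C, against 6 CpG and 52.4% in all windows. A match describes these letters only and says nothing about binding.

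Among the type I cadherins, Cdh2 (N-cadherin) was expressed at a high level in every library and was not called in any comparison. It ranged from 191 to 366 TPM in NBNs (median 293) and from 225 to 350.4 TPM in BPs of the same stages (median 286), with a difference of 0.04 ± 0.04. In mid NSCs it had 206 to 255 TPM (median 229), and in early NSCs 134.8 to 193 TPM (median 166). These ranges did not overlap, and the difference of 0.51 ± 0.06 (adjusted p = 2.2e-11) was under the size threshold.

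Cdh4 (R-cadherin) rose in BPs, with 107 to 149 TPM in late BPs (median 132) and 19.4 to 78.5 TPM in mid BPs (median 72.4). The groups did not overlap, and the difference was 1.26 ± 0.11 (adjusted p = 4.4e-14). In BPs its mean was 144.6 ± 6.00 TPM at PN (SD, n = 2) and 29.1 ± 1.74 TPM at E12.5 (n = 3). In NSCs Cdh4 had 44.1 to 87.1 TPM in the late window and 26.4 to 67.2 TPM in the mid window, a difference of 0.73 ± 0.10 that was not called.

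Cdh1 (E-cadherin) and Cdh3 (P-cadherin), which mark epithelia, exceeded 2 TPM in some of the early NSC libraries and in none of the others. Cdh1 was 6.14, 5.25 and 2.58 TPM and Cdh3 was 9.28, 5.66 and 2.63 TPM in the 3 libraries of E10.5. In the mid window Cdh1 was 0.0257 to 1.77 TPM (median 0.0915), against 0.831 to 6.14 TPM in early NSCs (median 2.14), and Cdh3 was 0.0481 to 0.358 TPM against 0.260 to 9.28 TPM. The differences were -1.499 ± 0.14 and -1.58 ± 0.12. Taking E11.5 alone as the early window, an alternative chosen after seeing the data, they were -0.82 and -0.70 and not called. The early NSC libraries also held more erythroid RNA, with sums over 8 markers of 20.2 to 298 TPM in mid NSCs and 1450.4 to 8778 TPM in early NSCs, and 7 of the 8 fell. Of the meninges and choroid plexus markers, 5 of 8 tested fell, with sums of 3.56 to 114 TPM in mid NSCs and 21.3 to 164.9 TPM in early NSCs. Their part in the Cdh1 and Cdh3 values was not tested. Cdh15 (M-cadherin, of muscle) stayed below the filter at 0.489 TPM in its highest group.

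The type II cadherins moved in different directions, and 11 of the 13 were tested. Cdh8 (chr8:99024471-99416471, minus strand, GRCm38) rose between the early and mid windows of NSCs, with 21.1 to 58.4 TPM in mid NSCs (median 38.0) and 2.03 to 8.75 TPM in early NSCs (median 4.86). The groups did not overlap and differed by 2.76 ± 0.14 (adjusted p = 1.3e-24). In the same comparison 9 of 10 neuron markers rose, with sums of 2787 to 6321 TPM in mid NSCs and 418 to 2993 TPM in early NSCs. So did 5 of 6 basal progenitor markers, with sums of 611 to 1472 TPM in mid NSCs and 91.4 to 408 TPM in early NSCs, and 4 of 8 interneuron and ventral markers, with sums of 61.2 to 786 TPM in mid NSCs and 40.2 to 374 TPM in early NSCs. Their part in this and the other changes between early and mid NSCs was not tested. Cdh8 then took different courses. From E17.5 it held 53.0 to 91.3 TPM in BPs and 10.7 to 51.7 TPM in NSCs, without overlap. The highest of those NSC values was NSC E17.5 replicate 1, one of the libraries set apart above, and its group mates had 18.9 and 20.6 TPM.

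The change of Cdh8 from mid to late was 0.76 ± 0.14 in BPs and -0.96 ± 0.12 in NSCs, neither of which was called, while their difference of 1.72 ± 0.18 was (adjusted p = 1.7e-11). The value in NSCs sat at the threshold: without NSC E17.5 replicate 1 it was -1.11 and called, with a difference between the changes of 1.87, and without E14.5 replicate 1 or E18.5 replicate 1 it was also called. In BPs the level was 72.7 and 69.3 TPM at PN, against 125.3, 102 and 103 TPM at E16.5, its highest stage. In NSCs it was 11.9, 11.7 and 10.7 TPM at PN, against 57.5, 74.6, 63.7 and 70.8 TPM at E16.5, again the highest stage. Both progenitor types thus had less Cdh8 at PN than at E16.5, without overlap. In NBNs the level was 38.4 and 43.7 TPM at PN and 23.4 to 29.1 TPM at E15.5, with its highest values of 72.4 and 77.6 TPM at E17.5. At E15.5 and E16.5 the NBN level was below that of BPs by -1.57 ± 0.15, with 23.4 to 53.9 TPM in NBNs and 87.75 to 125.3 TPM in BPs, and its rise in NBNs relative to BPs was 1.13 ± 0.21 (adjusted p = 8.9e-05).

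Cdh10 rose in both progenitor types. It had 42.5 to 75.3 TPM in late BPs (median 49.6) and 11.1 to 29.0 TPM in mid BPs (median 14.3), a difference of 1.68 ± 0.10 (adjusted p = 2.7e-21) with no overlap. In NSCs it had 6.05 to 15.3 TPM in the mid window and 1.21 to 2.08 TPM in the early window, a difference of 2.11 ± 0.10 with no overlap. Its late against mid difference in NSCs was 1.01 ± 0.09, with 16.1 to 37.0 TPM in late NSCs and 6.05 to 15.3 TPM in mid NSCs. That call sat at the threshold: without NSC E17.5 replicate 1, the library with 37.0 TPM, the difference was 0.91. From E17.5 on NBNs held less Cdh10 than BPs, with 18.2 to 31.2 TPM in NBNs and 42.5 to 75.3 TPM in BPs (-1.12 ± 0.10).

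Cdh20 (chr1:104768529-104995481, plus strand) had the greatest late against mid difference of the 28 genes in NSCs, except with a pseudocount of 0.1, where it had 2.87 and Pcdh15 3.00. It had 8.62 to 34.9 TPM in late NSCs (median 13.6) and 1.48 to 3.48 TPM in mid NSCs (median 2.16), with no overlap and a difference of 2.48 ± 0.08 (adjusted p = 8.8e-32). At PN it was 4.57 and 5.35 TPM in BPs and 34.9, 33.8 and 28.7 TPM in NSCs. It also rose in late BPs, by 1.07 ± 0.09 (2.87 to 5.35 TPM in late BPs, 0.976 to 2.11 TPM in mid BPs), and in late NBNs, by 1.28 ± 0.10 (1.60 to 3.49 TPM in late NBNs, 0.272 to 0.658 TPM at E15.5 and E16.5). Ranges did not overlap within either cell type. The rise in BPs was smaller than that in NSCs by -1.41 ± 0.13 (adjusted p = 7.0e-14). The rise in BPs was not called with median-ratio (0.97) or quantile scaling (0.84). Over the shared stages NBNs were lower than NSCs by -2.07 ± 0.07, and BPs were lower than NSCs by -1.03 ± 0.05. The BP call sat at the threshold and did not hold with quantile normalization (-0.86) or up to E16.5 (-0.51), or without PN (-0.82), an alternative added after seeing the data. Between mid and early NSCs it was not called.

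**Figure D4:**
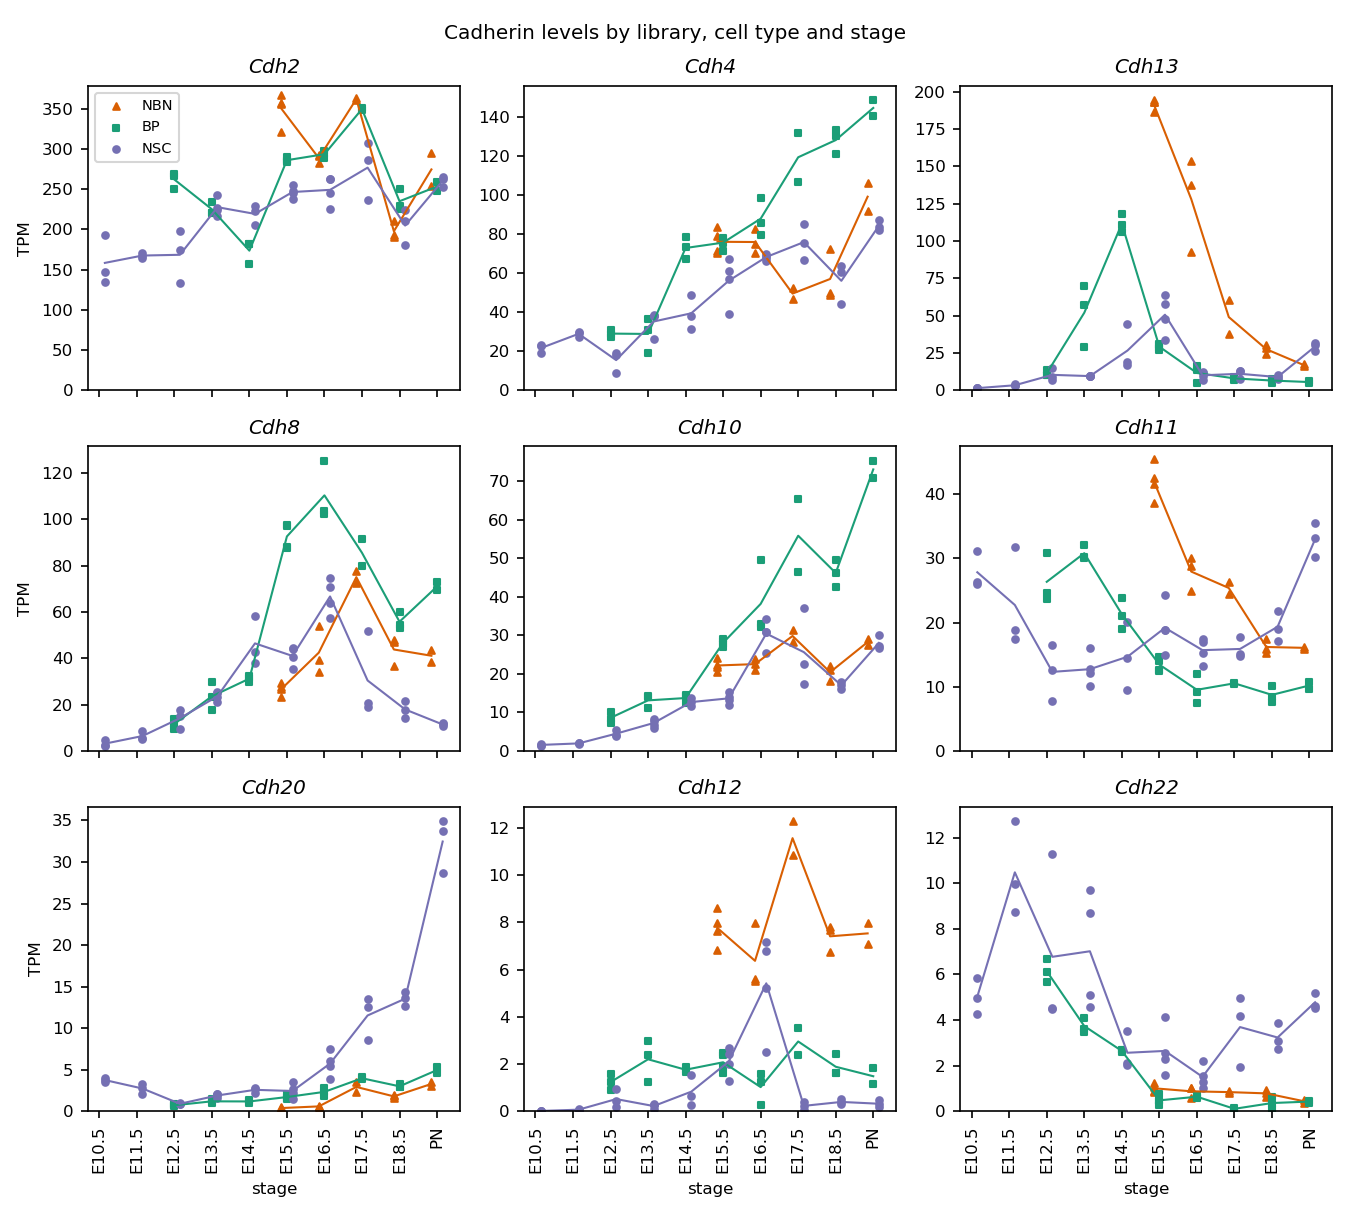
Levels in TPM of 9 cadherins by stage (points are libraries, lines join group means; NBN, BP and NSC). Cdh2 is at or above 133 TPM in every library, Cdh13 is highest at E14.5 or E15.5 in each cell type, with NBNs at 187 to 194 TPM at E15.5, and Cdh20 climbs in NSCs to 28.7 to 34.9 TPM at PN.

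Cdh11 and Cdh22 fell in BPs. Cdh11 had 7.66 to 10.8 TPM in late BPs (median 10.1) and 12.496 to 32.1 TPM in mid BPs (median 20.1), a difference of -1.01 ± 0.11 with no overlap that dropped just below the threshold when any 1 of 4 BP libraries was left out (between -0.984 and -0.998). Over the 5 shared stages NBNs had more Cdh11 than BPs, with 15.3 to 45.5 TPM in NBNs and 7.44 to 14.6 TPM in BPs (1.14 ± 0.09, adjusted p = 1.5e-16, no overlap). In NSCs the level was 35.6, 33.1 and 30.2 TPM at PN, and the change from mid to late in BPs was below that in NSCs by -1.51 ± 0.15. Cdh22 had 0.0529 to 0.641 TPM in late BPs and 0.277 to 4.11 TPM in mid BPs (-1.19 ± 0.14). In NSCs its level was 4.52, 5.19 and 4.64 TPM at PN and 8.74, 9.97 and 12.7 TPM at E11.5. Over the shared stages it was lower in BPs than in NSCs by -1.03 ± 0.08 and lower in NBNs than in NSCs by -1.15 ± 0.10. The NBN call did not hold with quantile normalization (-0.84) or up to E16.5 (-0.61). The BP call did not hold without NSC E12.5 replicate 2 (-0.98), with median-ratio scaling (-0.99), array weights (-0.97) or quantile normalization (-0.81), or up to E16.5 (-0.50), where the difference kept its direction but missed the size threshold.

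Cdh12 was higher in NBNs than in either other cell type. It had 5.52 to 12.3 TPM in NBNs (median 7.75), against 0.286 to 3.54 TPM in BPs (median 1.73), with no overlap and a difference of 1.69 ± 0.11 (adjusted p = 6.3e-20). Against NSCs, with 0.0682 to 7.16 TPM (median 0.515), the difference was 2.08 ± 0.10. The overlap with NSCs came from E16.5, where NSCs had 5.20, 6.79, 7.16 and 2.53 TPM. At that stage the sum of neuron markers in NSCs was 4833 to 5702 TPM in 3 libraries and 3528 TPM in replicate 4, the library with 2.53 TPM of Cdh12. In NSCs at E15.5 the sum was 5090 to 6321 TPM, without such an overlap. The lowest Cdh12 value of NSCs over E15.5 and E16.5, 1.29 TPM, came from E15.5. Neuron markers were higher in NBNs throughout, with sums of 6038 to 9743 TPM in NBNs, 3998 to 5876 TPM in BPs and 1154 to 6321 TPM in NSCs of the same stages, and 5 of 10 were called higher against BPs and 8 of 10 against NSCs. Their part in the Cdh12 difference was not tested. Over E15.5 and E16.5 alone the difference from NSCs was 0.89 and not called.

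The other type II members were lower or changed less. Cdh6 fell in late NBNs, with 1.35 to 6.33 TPM in late NBNs and 4.58 to 8.77 TPM at E15.5 and E16.5 (-1.04 ± 0.17, adjusted p = 2.1e-06). Without NBN E16.5 replicate 3 that difference was -0.97 and not called. Its change in BPs against that in NSCs, -0.98, was not called but passed when any 1 of 11 libraries was left out (-1.12 at most). Cdh24 held between 12.9 and 38.6 TPM in all 70 libraries and was not called. Cdh7 reached 13.49, 13.3 and 13.3 TPM in BPs at E12.5 and was not called over the full comparisons, although from E17.5 on it was lower in NBNs (0.375 to 2.55 TPM) than in NSCs (2.28 to 9.18 TPM), by -1.14 ± 0.12. Cdh5 (VE-cadherin, of endothelium) was 5.33, 6.31 and 2.43 TPM in NSCs at E10.5. The sum of 12 endothelial and pericyte markers in those libraries was 17.4 to 37.7 TPM. That sum was 4.08 to 48.3 TPM in mid NSCs and 36.9 to 173 TPM in late NSCs, where Cdh5 was 0.189 to 3.71 TPM. The part of these markers in the Cdh5 values was not tested. The Cdh5 difference of mid from early NSCs, -0.95, was not called but passed when any 1 of 4 libraries was left out (-1.03 to -1.12). Cdh18 was highest in BPs at E12.5 (2.39, 3.13 and 1.90 TPM). Cdh9, with 0.759 TPM in its highest group, and Cdh19, with 0.979 TPM in NSCs at PN, were below the filter, and Cdh19 was listed at 0 in 43 of the 70 libraries.

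Among the atypical cadherins, Cdh13 (T-cadherin, which is held in the membrane by a lipid anchor and has no cytoplasmic tail; chr8:118283733-119324921, plus strand) was called in 7 of the 9 comparisons. In NSCs it was 63.5, 47.8, 33.5 and 57.9 TPM at E15.5, against 1.49, 1.77 and 1.33 TPM at E10.5. The mid window held 9.32 to 63.5 TPM (median 18.8) and the early window 1.33 to 4.10 TPM (median 2.23), with no overlap and a difference of 2.83 ± 0.18 (adjusted p = 1.7e-20). Without NSC E14.5 replicate 3, which had 44.3 TPM against 16.9 and 18.8 TPM in the others of its group, the difference was 2.69.

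In BPs Cdh13 was 6.15 and 5.02 TPM at PN, against 111, 106 and 118 TPM at E14.5. Late BPs had 4.93 to 8.91 TPM (median 6.94) and mid BPs 27.0 to 118 TPM (median 44.1), with no overlap and a difference of -2.86 ± 0.18 (adjusted p = 6.0e-20). In NBNs the level was 16.2 and 17.7 TPM at PN, against 193, 187, 193 and 194 TPM at E15.5, and late NBNs were lower than NBNs at E15.5 and E16.5 by -2.42 ± 0.19 (16.2 to 60.6 TPM late, 92.9 to 194 TPM at E15.5 and E16.5). In NSCs the late window was not called lower (-0.64 ± 0.16), and the level at PN was 30.3, 26.2 and 31.7 TPM. Each of these PN values lay above those of NBNs at PN. The change in BPs was below that in NSCs by -2.22 ± 0.24 (adjusted p = 1.6e-11). The change in NBNs was below that in BPs over the stages they share by -1.13 ± 0.27 (adjusted p = 0.003), and without BP E16.5 replicate 1 it was -0.89 and not called. Without the PN libraries, an alternative added after seeing the data, it was -0.88 (adjusted p = 0.0615) and missed both thresholds.

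At every shared stage each NBN library had more Cdh13 than any BP library of that stage. Over the 5 stages NBNs held 16.2 to 194 TPM (median 76.8) and BPs 4.92 to 31.2 TPM (median 8.44), a difference of 2.39 ± 0.14 (adjusted p = 6.2e-22). These pooled ranges overlapped. At E15.5 and E16.5 they did not, with 92.9 to 194 TPM in NBNs and 4.92 to 31.2 TPM in BPs (3.06 ± 0.19). Against NSCs the difference of NBNs was 1.66 over the 5 stages and 2.73 up to E16.5. From E17.5 on it was 0.94 and not called, with 16.2 to 60.6 TPM in NBNs and 7.32 to 31.7 TPM in NSCs. Cdh23, a component of the inner-ear tip link, had at most 1.98 TPM in any library and was highest in BPs at PN (1.98 and 1.71 TPM). Cdh16, Cdh17 and Cdh26 were below the filter, with 0.0182, 0.692 and 0.319 TPM in their highest groups.

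The delta1 protocadherins were all tested. Over the 5 shared stages Pcdh1 was higher in NBNs than in BPs, with 11.1 to 29.7 TPM in NBNs (median 20.5) and 1.85 to 7.24 TPM in BPs (median 4.65), no overlap and a difference of 1.86 ± 0.14 (adjusted p = 3.1e-17). BPs of earlier stages reached 18.1 TPM of Pcdh1. Its change from mid to late was -0.92 ± 0.18 in BPs (-1.01 and called without BP E13.5 replicate 1) and 0.49 ± 0.16 in NSCs, neither called in full, and these changes differed by -1.41 ± 0.24 (adjusted p = 2.1e-06). Pcdh9 was also higher in NBNs than in BPs over the 5 shared stages, with 22.4 to 50.4 TPM in NBNs and 5.98 to 25.5 TPM in BPs (1.11 ± 0.14). BPs of earlier stages reached 41.95 TPM of Pcdh9. It rose between early and mid NSCs (1.25 ± 0.18), a call that did not hold with E11.5 alone as the early window (0.73) or with quantile normalization (0.92). The lowest BP value, 5.98 TPM, came from BP E16.5 replicate 1. Pcdh7 rose from early to mid NSCs, with 5.25 to 14.47 TPM in mid NSCs and 1.75 to 3.39 TPM in early NSCs (1.65 ± 0.13, no overlap), and was not called elsewhere.

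Pcdh11x, an X-linked gene (chrX:120290259-120910619, plus strand), rose late in NSCs and was not called between the mid and early windows. It was 1.75, 1.71 and 2.55 TPM at E17.5, still overlapping the mid window, 7.62, 6.68 and 5.67 TPM at E18.5 and 14.1, 9.23 and 9.73 TPM at PN, while mid NSCs held 0.652 to 1.87 TPM. The difference of late from mid NSCs was 1.75 ± 0.09 (adjusted p = 3.9e-23). In BPs it was 1.04 and 0.752 TPM at PN, against 5.01, 2.90 and 2.82 TPM at E12.5, and the change from mid to late in BPs was below that in NSCs by -2.09 ± 0.14. A term for the Y-linked transcripts, added after seeing the data because 2 members are X-linked, left the NSC difference at 1.75 and that of Pcdh19, below, at -1.56.

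The delta2 protocadherins were all tested, and Pcdh17 alone among them was called in none of the 9 comparisons. Pcdh10 (OL-protocadherin; chr3:45378398-45435623, plus strand) rose in NSCs across both windows. It had 20.7 to 32.6 TPM in mid NSCs and 2.34 to 15.6 TPM in early NSCs (1.84 ± 0.10; 0.96 and not called with E11.5 alone as the early window), and 49.0 to 119 TPM in late NSCs against the same mid values (1.53 ± 0.09, adjusted p = 2.7e-21). None of these ranges overlapped. At PN it was 17.7 and 19.2 TPM in NBNs, 23.005 and 23.2 TPM in BPs and 119, 98.2 and 89.4 TPM in NSCs. Every NSC library of that stage was thus above all NBN and BP libraries. In BPs it had been 26.3, 22.98 and 27.9 TPM at E12.5, and no change from mid to late was called in BPs or NBNs. The change from mid to late in BPs was below that in NSCs by -1.81 ± 0.14 (adjusted p = 1.6e-16).

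Pcdh8 (arcadlin, which in rat is induced by neuronal activity) was highest in NBNs, where it was 127 and 150.3 TPM at PN. Over the shared stages it had 53.5 to 150.3 TPM in NBNs (median 102) and 21.6 to 102 TPM in NSCs (median 48.2), a difference of 1.08 ± 0.08. Split by stage, it was 1.72 ± 0.12 from E17.5 on and 0.11 and not called up to E16.5. Pcdh8 also rose in NSCs, with 12.53 to 60.8 TPM in mid NSCs and 2.20 to 7.82 TPM in early NSCs (2.34 ± 0.12, no overlap), and in BPs, with 65.6 to 93.5 TPM in late BPs and 12.7 to 81.6 TPM in mid BPs (1.15 ± 0.11). Exons of Pcdh8 overlap an annotated gene on the other strand, and the library kit did not keep strand, so its level, like those of Cdh8, Cdh9, Pcdh7, Pcdh10 and Pcdh19, may include reads of another gene. Cdh12 overlaps one on its own strand.

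**Figure D5:**
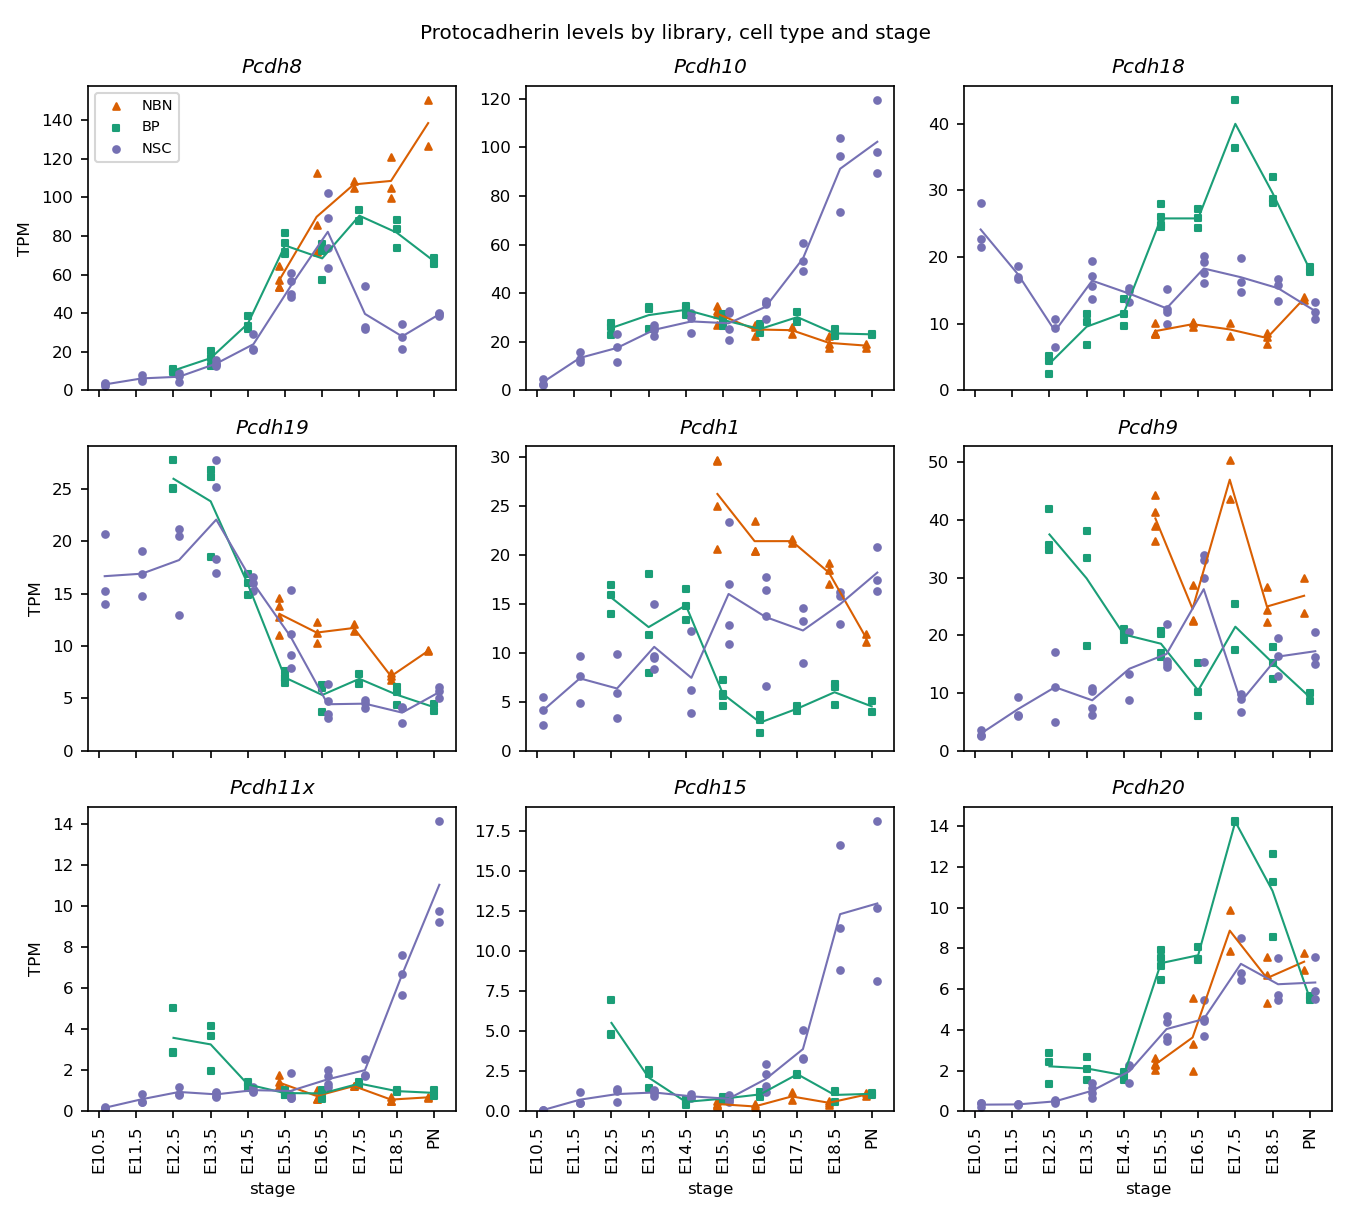
Levels in TPM of 9 protocadherins by stage (points are libraries, lines join group means; NBN, BP and NSC). Pcdh10, Pcdh11x and Pcdh15 lie above the other cell types in NSCs at E18.5 and PN, with Pcdh10 at 89.4 to 119 TPM at PN. Pcdh19 is lower in the late than in the mid window in BPs and NSCs, and Pcdh18 is higher in BPs than in NBNs at their shared stages.

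Pcdh18 separated BPs from NBNs over their 5 shared stages, with 6.96 to 14.05 TPM in NBNs (median 9.07) and 17.8 to 43.6 TPM in BPs (median 26.6). The groups did not overlap and differed by -1.38 ± 0.08 (adjusted p = 9.0e-23), and it was the one member called lower in NBNs than in BPs over the 5 stages. In BPs its level was 43.6 and 36.4 TPM at E17.5, against 2.46, 4.38 and 5.18 TPM at E12.5. Pcdh19 (chrX:133582860-133688987, minus strand), whose loss causes an epilepsy in heterozygous human females, fell from the mid to the late window in both progenitor types. It had 3.84 to 7.38 TPM in late BPs and 6.49 to 26.8 TPM in mid BPs (-1.23 ± 0.11), and 2.69 to 6.09 TPM in late NSCs against 7.96 to 27.8 TPM in mid NSCs (-1.58 ± 0.10, adjusted p = 1.3e-19). The NSC ranges did not overlap. Before that, NSCs had 14.0, 15.3 and 20.7 TPM of Pcdh19 at E10.5 and 27.8, 18.3, 17.0 and 25.2 TPM at E13.5. Pcdh17 had 5.69 to 22.2 TPM in late NSCs and 4.15 to 8.76 TPM in mid NSCs, and its difference of 1.00 (0.997 before rounding) fell just short of the size threshold and passed it when any 1 of 11 libraries was left out.

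Of the remaining protocadherins, Pcdh15, the partner of Cdh23 in the inner-ear tip link, had a course like that of Pcdh11x. It had 3.24 to 18.1 TPM in late NSCs (median 8.83) and 0.598 to 1.32 TPM in mid NSCs (median 0.961), with no overlap and a difference of 2.27 ± 0.11 (adjusted p = 3.8e-25). In BPs it was 1.17 and 1.01 TPM at PN, against 4.81, 4.76 and 6.96 TPM at E12.5, and the change from mid to late in BPs was below that in NSCs by -2.04 ± 0.16. NBNs were lower than NSCs by -1.72 ± 0.09, a call that did not hold up to E16.5 (-0.74). Pcdh20 rose from mid to late in NSCs (1.29 ± 0.10; 5.48 to 8.49 TPM late, 0.643 to 4.68 TPM mid) and in BPs (1.35 ± 0.11; 5.47 to 14.2 TPM late, 1.55 to 7.93 TPM mid), and in NBNs from the first to the late window (1.16 ± 0.12; 5.34 to 9.86 TPM late, 1.97 to 5.58 TPM at E15.5 and E16.5). It and Cdh20 were the members called higher late in all 3 cell types. Pcdh12, with 0.577 TPM in its highest group, was below the filter.

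The patterns were set side by side over the 23 group means for the 24 members with a group mean of at least 5 TPM, as a description of means that share libraries and stages. Of 276 pairs, Pcdh11x and Pcdh15 were the most alike (Pearson r = 0.929), followed by Cdh10 with Pcdh20 (0.895), Cdh4 with Cdh10 (0.888) and Cdh10 with Pcdh8 (0.888). The least alike pairs all held Cdh22, with Pcdh8 (-0.878), Cdh8 (-0.836) and Cdh10 (-0.834).

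Genes that work with cadherins were read from fixed lists. The counts below stand against 13.7% of all tested genes higher and 5.26% lower in mid than in early NSCs. Among 14 tested catenin and adherens junction genes, 3 rose from early to mid NSCs, namely the catenins Ctnna2 (2.08 ± 0.11) and Ctnnd2 (1.70 ± 0.09) and plakoglobin (Jup, 1.05 ± 0.11), and none was called by limma from mid to late in NSCs or in BPs, although 12 and 6 of the 14 had an unadjusted p below 0.05 there. Alpha-catenin Ctnna1 was lower in NBNs than in BPs (-1.47 ± 0.06) and NSCs (-2.26 ± 0.06), with 19.2 to 29.3 TPM in NBNs. The junction proteins Plekha7 (-1.91 ± 0.07) and nectin-3 (Pvrl3, -1.499 ± 0.05) were lower in BPs than in NSCs. The median of the list was -0.08 for BPs against NSCs, against -0.02 over all genes.

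Among 12 tested genes of a list of giant and other cadherins and Fjx1, 6 rose and 2 fell from early to mid NSCs. Clstn2 (calsyntenin-2, 2.50 ± 0.16), Celsr3 (1.77 ± 0.14), Celsr1 (1.61 ± 0.15) and Fjx1 (1.21 ± 0.06) were among those that rose, and Fat1 (-1.06 ± 0.13) was among those that fell. In NBNs against BPs Clstn2 (2.64 ± 0.12) and Fat4 (1.37 ± 0.13) were higher and Celsr1 (-2.76 ± 0.11), a planar polarity gene, was lower. Of the 8 tested genes of the Snail, Twist, Scratch and Zeb families, of which Snail, Twist and Zeb proteins repress E-cadherin in epithelia, Scrt2 (3.14), Scrt1 (2.82) and Zeb2 (2.06) rose and Twist1 (-2.84) and Snai1 (-1.54) fell from early to mid NSCs, the comparison in which Cdh1 fell. Of the 9 tested genes of the WAVE complex 1 rose in that comparison, Abi2 (1.07 ± 0.07), and Wasf2 was lower in NBNs than in NSCs (-1.36).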

How the data were processed

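Processed expression was used from 70 mouse RNA-seq libraries; the labels give TRIzol extraction, TruSeq RNA v2 and single 50-base reads. Per the submitters' processing notes, kallisto 0.43.0 and the builds GRCm38.p2 and mm10 were used. The deposited values are TPM per gene, already normalized by the authors for transcript length and library total, so sequencing depth is unknown and no counting interval is given. From them log2(TPM + 1) was computed and 1 mean per group was fitted with limma 3.58.1 (R 4.3.3; empirical Bayes with trend, 47 residual degrees of freedom) to all 70 libraries and the 15508 genes with a group mean of at least 1 TPM. P-values were Benjamini-Hochberg adjusted over all of them, and a call needed an adjusted p below 0.05 and a log2 difference of at least 1 in size. The scale understates changes of low genes. Stages weighed equally within a contrast. Members and lists were chosen with earlier results of these data known. Every member is accounted for by role; values are given for those with a group mean of at least 10 TPM or among the 3 greatest called differences of a comparison, and called members may be named. Positions are GENCODE's on GRCm38; promoters are RefSeq's. Tables were handled in Python 3.11.15 with pandas 2.3.3 and drawn with matplotlib 3.10.9. Alternatives covered the pseudocount, filter, scaling, weights, windows, replicate block and each library left out; others were added after seeing the data.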

Additional observations from a re-analysis of the deposited data

Results flagged for a closer look

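Among 23 members in each of the 5 groups of 4 libraries, 6 sets held a library far from the others; chance gives about 1 in 20. They were Cdh13 at 186.61 TPM in NBN E15.5 replicate 2 (the others 193 to 194 TPM), Cdh4 at 26.449 TPM in NSC E13.5 replicate 1 (the others 37.9 to 38.5 TPM), Pcdh9 at 22.05 TPM and Pcdh11x at 1.8667 TPM in NSC E15.5 replicate 1 (the others 14.48 to 15.6 TPM and 0.652 to 0.783 TPM), Pcdh18 at 10.089 TPM in NBN E15.5 replicate 2 (the others 8.42 to 8.65 TPM), and Cdh6 at 7.1483 TPM in NBN E15.5 replicate 3 (the others 8.53 to 8.77 TPM).

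The change from mid to late differed between BPs and NSCs, by a test of the difference itself (log2 scale, change in BPs minus change in NSCs), for Cdh8 (1.72), Cdh22 (-1.2585), Cdh20 (-1.4096), Pcdh1 (-1.4096), Cdh11 (-1.5126), Pcdh10 (-1.8072), Pcdh15 (-2.0443), Pcdh11x (-2.0885) and Cdh13 (-2.2181). Cdh20 rose in both cell types and by more in NSCs, whereas Cdh8 was called in neither alone, although its change in NSCs was -1.11 and called without NSC E17.5 replicate 1. The change from the first to the late window differed between NBNs and BPs for Cdh8 (1.1324) and Cdh13 (-1.128). The Cdh13 difference was not called without BP E16.5 replicate 1 or without the PN libraries.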

How the results depend on the processing

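The 57 called differences of members kept their direction in all 4815 recomputations and were not called in 80 of these, 14 of 3990 with 1 library left out and 66 of 825 under other settings. Calls lost most often under a pseudocount of 5, which shrinks low genes: the counts were then 0 of 2 for BPs against NSCs, 3 of 6 for NBNs against BPs, 5 of 8 for NBNs against NSCs, 5 of 10 for mid against early NSCs, 4 of 7 for late against mid NSCs, 4 of 9 for late against mid BPs and 1 of 4 for late against first NBNs. With a pseudocount of 0.1 they were 4 for BPs against NSCs, 16 for mid against early NSCs and 5 (from 2) for the change in NBNs against that in BPs. For BPs against NSCs, median-ratio scaling and array weights gave 1, quantile normalization 0, stages up to E16.5 0, stages from E17.5 13 and, added after seeing the data, leaving out PN 0; NBNs against NSCs gave 2 up to E16.5 and 5 without PN. With 1 library left out, counts ranged from 1 to 2 for BPs against NSCs and from 1 to 2 for the change in NBNs against that in BPs. Scaling moved the median of all genes: for NBNs against NSCs it was -0.12, and -0.01 with median-ratio and 0.04 with quantile scaling; for mid against early NSCs 0.14, -0.05 and -0.04; for late against mid NSCs 0.12, 0.02 and -0.07; for late against mid BPs 0.12, 0.02 and -0.01. The labels do not say that replicate numbers pair libraries. Same-numbered libraries correlated above 0.1 in 9 of 23 BP and NSC pairs, 8 of 14 NBN and BP pairs and 1 of 14 NBN and NSC pairs. A replicate block gave 10 in place of 9 genes for the change in BPs against that in NSCs and the same count elsewhere. In Y-linked transcripts, 12 of 14 same-numbered NBN and BP libraries lay on the same side of 10 TPM, all but E18.5 replicates 1 and 3, against 12 of 23 for BPs and NSCs and 6 of 14 for NBNs and NSCs. With same-numbered NBN and BP libraries paired within stage, added after seeing the data, the 6 calls of NBNs against BPs and the 2 of their changes all held. The causes of these shifts were not tested.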
